A study of Mus musculus with 12 samples.

Results

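The genes described here are carriers that move amino acids, neurotransmitters, sugars and monocarboxylates across membranes. They were all 87 of the 54347 genes in the count table whose symbol is Slc1a, Slc2a, Slc3a, Slc6a, Slc7a, Slc16a, Slc36a, Slc38a or Slc43a followed by a number. RNA was sequenced after oligo(dT) enrichment in 12 libraries of mouse PYMT cells, a line whose name is that of a mouse model of breast cancer in which polyoma middle T antigen is expressed in the mammary gland. The NT cells received no ligand, the TGFB2 cells 5 ng/mL of TGFB2, the BMP4 cells 5 ng/mL of BMP4, and the BMP4-TGFB2 cells both. In every group the cells were kept in matrigel, the treatment lasted 3 days, and the RNA came from cells taken 2 days after a change of medium. Each group had 3 libraries, called biological replicates in the labels, with no word on how the cultures differed, so the p-values rest on the variation among these libraries alone. The study concerned the programs of dormancy, a lasting arrest of tumour cells, that either ligand sets in motion.

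Cells cannot make the essential amino acids and take up most of their glutamine, cystine, glucose and serine through solute carriers. The Slc7 light chains work as exchangers and reach the plasma membrane only when joined to a Slc3 heavy chain, while the Slc1, Slc6 and Slc38 carriers use the sodium gradient to load the cell. Slc2 carriers let sugars pass down their gradient, and the Slc16 family moves lactate, pyruvate, creatine and aromatic amino acids. Many of the amino acid carriers are induced by ATF4, the transcription factor of the integrated stress response. TGFB2 signals through SMAD2 and SMAD3, and BMP4 through SMAD1 and SMAD5. The mammary epithelium, which makes milk protein, lactose and fat, is a tissue of heavy nutrient uptake.

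Of the 87 carriers, 51 passed the filter on low counts and were tested, 33 were detected below it, and Slc7a12, Slc6a21 and Slc2a7 had no count in any library. No carrier below the filter exceeded 28 counts or 0.746 CPM in any library, CPM being a gene's counts scaled to a common library total. These included the heavy chain Slc3a1, the liver glucose carrier Slc2a2, the fructose carrier Slc2a5 and the branched-chain amino acid carrier Slc43a1. Library totals ran from 28543100 to 42167800 counts. Levels of different genes are compared in TPM, which is scaled for length. In NT the highest carriers by TPM were the heavy chain Slc3a2 at 278 ± 126 (SD, n = 3), Slc38a10 at 268 ± 46.4, the leucine carrier Slc7a5 at 144 ± 47.5, the glutamine carrier Slc38a2 at 100 ± 35.7 and the glucose carrier Slc2a1 at 99.5 ± 6.23. With TGFB2 the order changed at the top, where the taurine carrier Slc6a6 came first at 469 ± 91.9 TPM, before Slc38a10 at 421 ± 73.6 and Slc3a2 at 401 ± 201, values that lie within each other's spread. With both ligands the mean of Slc6a6 was again the highest, at 611 ± 148 TPM, before Slc38a10 at 432 ± 89.7 and Slc3a2 at 430 ± 242. In the replicate 1 libraries Slc3a2 exceeded Slc6a6, at 633 against 368 TPM with TGFB2 and 704 against 457 TPM with both. With BMP4 alone Slc6a6 came after Slc3a2 and Slc38a10, at 174 ± 36.4 TPM.

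The labelled cell type was checked against its markers. Epithelial genes were high in every library, with 8 genes summing to 4115 to 4369 CPM in NT, 5292 to 6755 CPM with TGFB2, 5059 to 5203 CPM with BMP4 and 5609 to 7225 CPM with both, and the basal keratin Krt5 was low at 0.194 CPM in NT. These genes did not move as one: the tight junction gene Cldn4 went from 212 CPM in NT to 1412 CPM with TGFB2 and 1634 CPM with both, the keratin Krt14 from 285 CPM in NT to 1123 CPM with BMP4, while E-cadherin, Cdh1, fell with TGFB2 (-0.29, adjusted p = 0.0473) and with both (-0.50, adjusted p = 0.00295). Markers of other cell types moved with TGFB2 and with both ligands, and 1 of them with BMP4. The 7 fibroblast markers summed to 4.23 to 11.1 CPM in NT, 17.4 to 28.3 CPM with TGFB2, 6.75 to 18.0 CPM with BMP4 and 13.7 to 26.2 CPM with both. Of the 6 tested, 4 rose with TGFB2, 0 with BMP4 and 3 with both. The 7 leukocyte markers summed to 2.27 to 4.58 CPM in NT, 8.59 to 10.6 CPM with TGFB2, 6.45 to 9.35 CPM with BMP4 and 8.46 to 11.5 CPM with both. Of the 4 tested, 2 rose with TGFB2, Csf1r and Laptm5. Csf1r also rose with BMP4 (2.62, adjusted p = 0.0292) and with both (3.99, adjusted p = 0.000821). The T cell marker Cd3e was at most 0.0341 CPM in any group mean. The 5 neuron markers summed to 79.6 to 93.1 CPM in NT, 11.1 to 26.8 CPM with TGFB2, 35.1 to 47.6 CPM with BMP4 and 7.98 to 24.5 CPM with both. In NT nearly all of the sum was Map2, at 87.0 CPM. Map2 was at 17.7 CPM with TGFB2, 38.7 CPM with BMP4 and 10.9 CPM with both, and Snap25 at most 0.0675 CPM in any group mean. Within that list Tubb3 went the other way, from 0.402 CPM in NT to 3.04 CPM with TGFB2 (adjusted p = 0.0530) and 5.27 CPM with both (adjusted p = 0.0180). The 4 erythroid markers summed to 2.38 to 6.77 CPM in NT, 7.83 to 14.9 CPM with TGFB2, 2.36 to 7.10 CPM with BMP4 and 3.44 to 6.85 CPM with both, most of it the haemoglobin gene Hba-a1, at 2.49 CPM in NT and 7.65 CPM with TGFB2 (adjusted p = 0.0653). The part of these markers in the carrier results below was not tested. In bulk RNA, fewer cells of a type and less RNA per cell cannot be told apart.

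The replicate 1 libraries stood apart from the others for a set of amino acid carriers, and this is stated before the results that rest on them. In all 4 groups the replicate 1 library had the highest CPM of the 3 for 11 of the 51 tested carriers, or 21.6%, beside 12.3% of all genes tested. They were Slc3a2, Slc7a5, Slc7a1, Slc1a4, Slc38a2, Slc38a7, Slc6a8, Slc6a9, Slc2a1, Slc2a8 and Slc16a12. Replicate 1 was the lowest in all 4 groups for 9 carriers, or 17.6%, beside 11.9% of all genes. The glycine carrier Slc6a9 showed the widest gap, with replicate 1 above the mean of replicates 2 and 3 by 2.62 in NT, 1.56 with TGFB2, 1.93 with BMP4 and 1.71 with both, in log2 of CPM plus 0.5. Genes of the integrated stress response did the same: replicate 1 was the highest in all 4 groups for 25 of the 29 genes of the list, or 86.2%, Atf4, Ddit3, Asns, Chac1 and Trib3 among them, and the list's mean lay above that of the other replicates by 0.92 to 1.25. The part of that response in the carriers' values was not tested. For the carriers described in full, a call against NT that changes without the 4 replicate 1 libraries is given with both values.

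**Figure D1:**
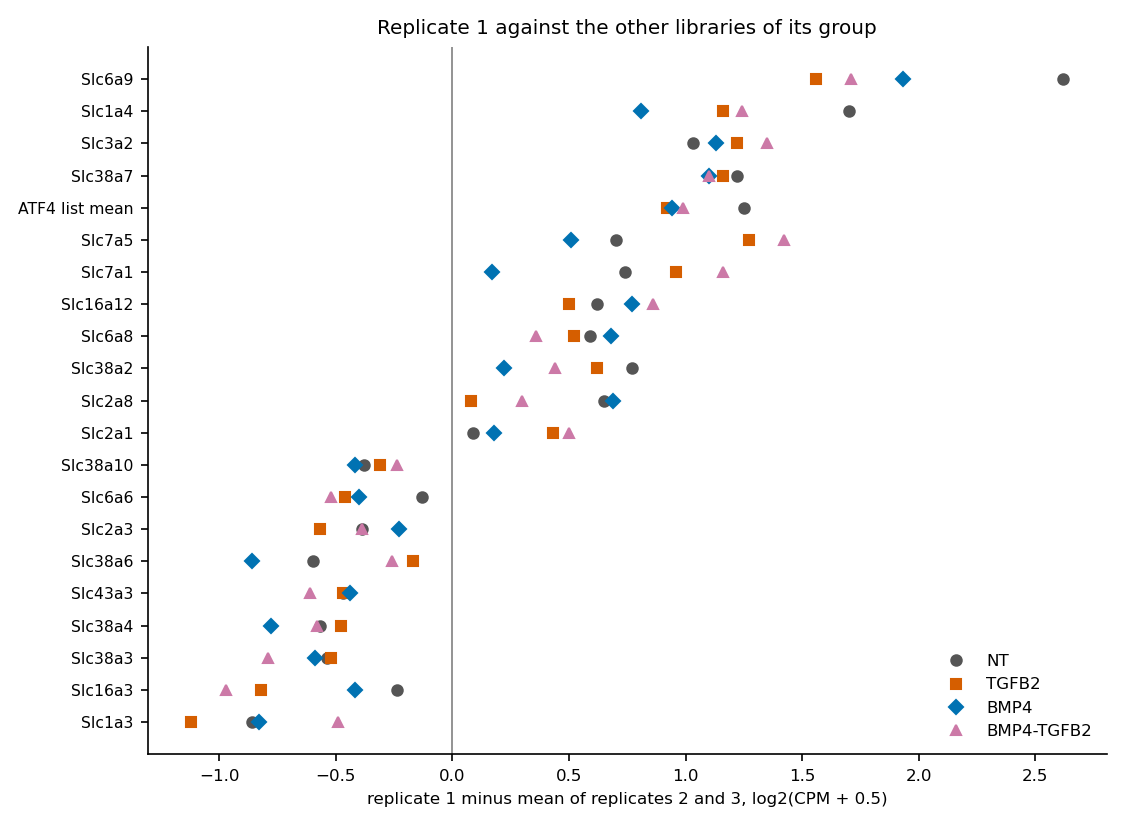
Each row is a carrier whose replicate 1 library was the highest or the lowest of its group in all 4 groups, or the mean of the 29 stress response genes, and each symbol is a group. The x axis is the log2 difference, in CPM plus 0.5, between replicate 1 and the mean of replicates 2 and 3; Slc6a9, at 1.56 to 2.62, lies farthest to the right and the stress response mean lies at 0.92 to 1.25.

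A carrier was called where the adjusted p of edgeR's quasi-likelihood test over all 15319 genes tested was under 0.05. Log2 fold changes are printed ± SE, and the replicate block is a fit in which libraries of the same replicate number may deviate together. TGFB2 against NT called 14 carriers as higher and 8 as lower of 51, which is 27.5% and 15.7%, where 11.3% of all genes tested were called higher and 11.1% lower. BMP4 against NT called 5 as higher and 2 as lower, 9.80% and 3.92%, beside 3.19% and 2.25% of all genes. Both ligands against NT called 14 as higher and 10 as lower, 27.5% and 19.6%, beside 13.3% and 12.9% of all genes. The carriers' shares of higher calls were above those of all genes, their shares of lower calls were nearer to them, and these differences were not tested. The 3 comparisons share the NT libraries, so their values are given side by side. Without the replicate 1 libraries 52 carriers were tested, of which 21 were called with TGFB2 (40.4%, beside 26.3% of all genes), 6 with BMP4 (11.5%, beside 4.37%) and 26 with both (50%, beside 30.8%). On log2 of TPM plus 1, a scale that understates the change of low genes, limma lost the TGFB2 calls of Slc2a6, Slc6a2, Slc6a8, Slc6a12, Slc16a7 and Slc16a10, the BMP4 calls of Slc6a4, Slc7a2 and Slc16a10, and the calls with both of Slc1a2, Slc6a2, Slc7a4 and Slc16a7.

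**Figure D2:**
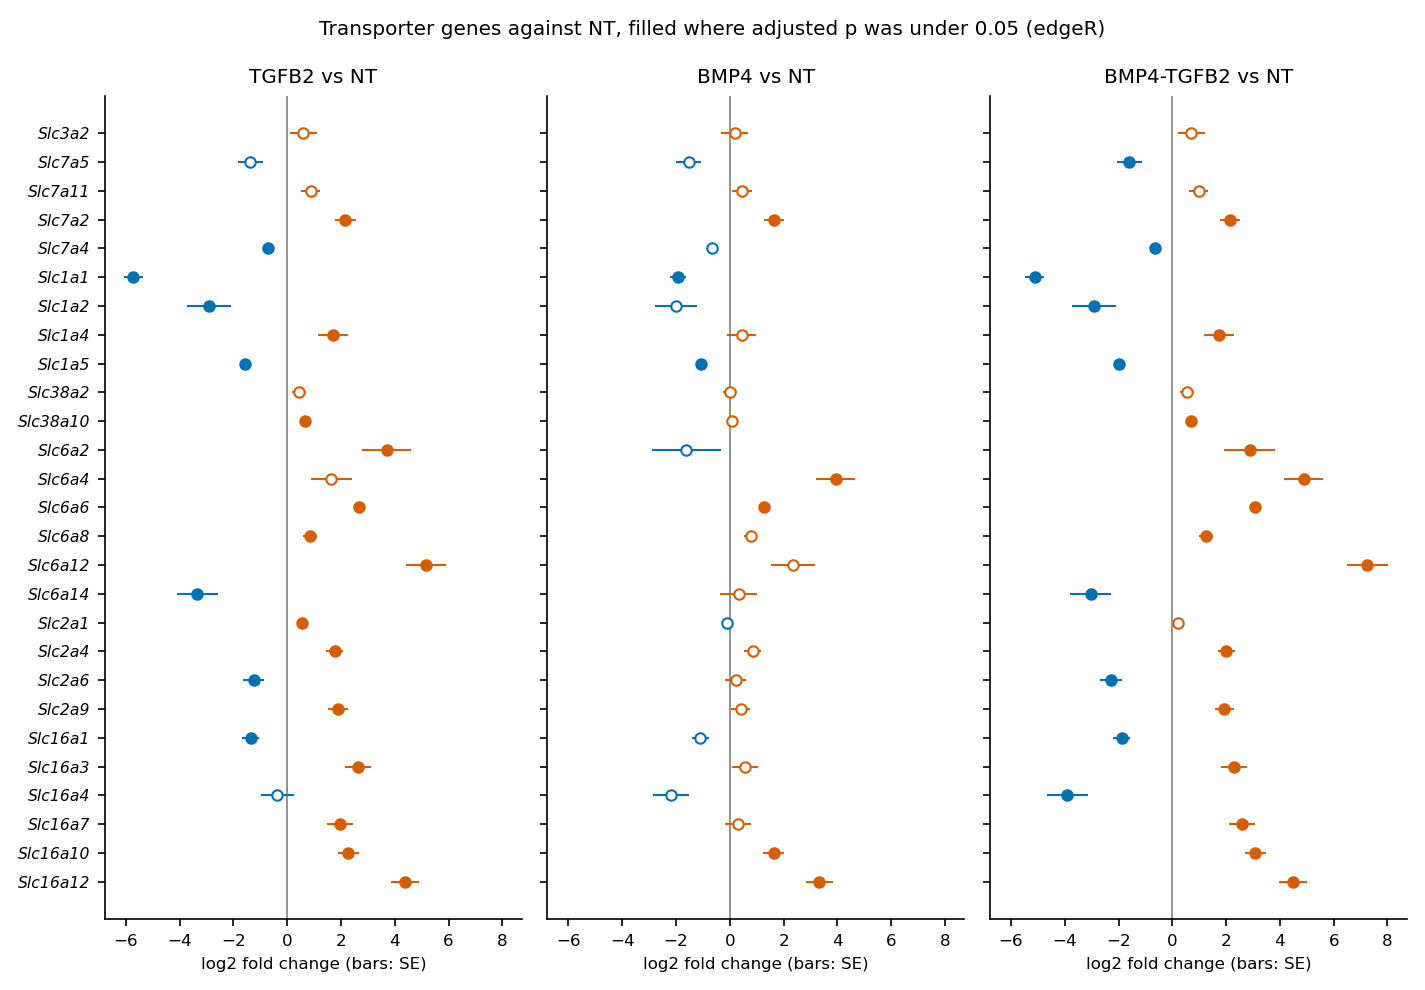
The log2 fold change against NT (x axis, bars are SE, 3 libraries a group) is shown for the carriers reported by name that were called in at least 1 of the 3 comparisons and for the uncalled ones described in full, filled where the adjusted p of edgeR was under 0.05. Slc1a1 lies farthest to the left with TGFB2, at -5.72, and Slc6a12 farthest to the right with both ligands, at 7.25.

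Slc6a6 (ENSMUSG00000030096.8, chr6:91684053-91759066), the sodium- and chloride-coupled carrier of taurine, an organic osmolyte, had the highest mean TPM of the carriers in both groups that received TGFB2. Slc6a6 read 255, 270 and 287 CPM in NT, 1412, 1888 and 1995 CPM with TGFB2, 528, 613 and 794 CPM with BMP4, and 1771, 2684 and 2394 CPM with both. Every treated library was above every NT library, and the BMP4 libraries lay between NT and the libraries that received TGFB2. Its log2 fold change was 2.68 ± 0.21 (adjusted p = 1.85e-05) for TGFB2, 1.28 ± 0.20 (adjusted p = 0.00463) for BMP4 and 3.09 ± 0.21 (adjusted p = 4.81e-06) for both ligands against NT. TGFB2 also raised it in cells that received BMP4, by 1.81 ± 0.20 (adjusted p = 0.000556). Slc6a6 made up much of what the carriers held together: the summed TPM of all 87 was 1269 to 1738 in NT and 2022 to 2347 with TGFB2, which do not overlap, while without Slc6a6 the sums were 1200 to 1668 and 1520 to 1978, which do. With BMP4 the sum of all 87 was 1395 to 1616 TPM, inside the NT range, and with both ligands it was 1969 to 2512 TPM.

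**Figure D3:**
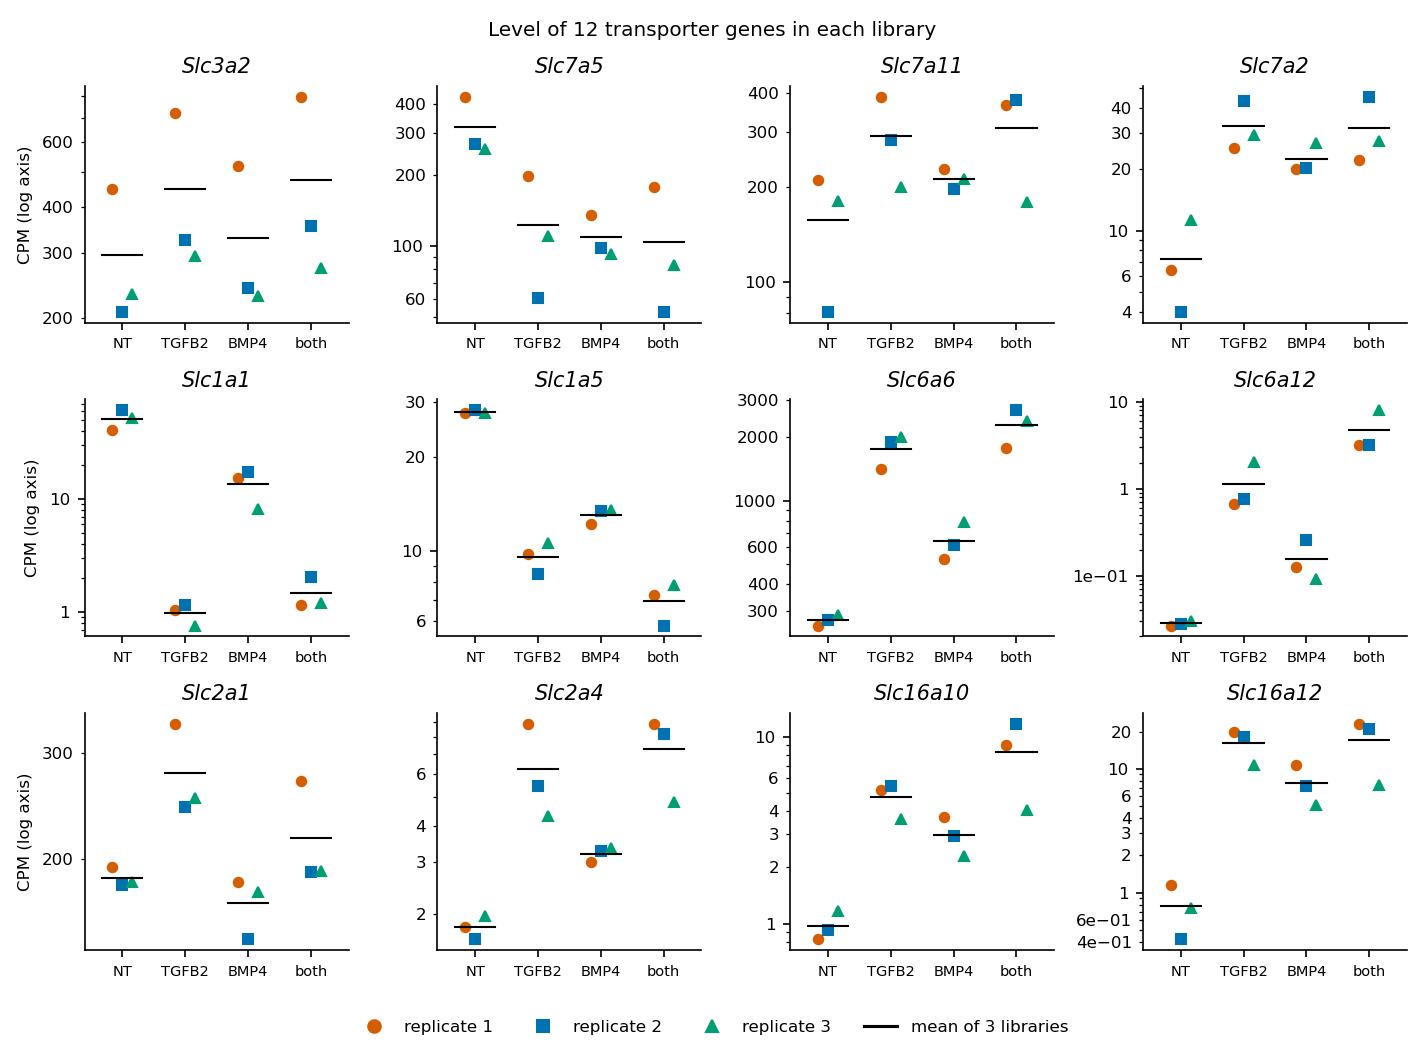
CPM (log axis, each panel with its own range) of 12 carriers in the 12 libraries, with 1 symbol per replicate number and a bar at the mean of 3; "both" is the BMP4-TGFB2 group. Slc6a6 and Slc16a12 are higher in every treated library than in NT, Slc1a1 and Slc1a5 are lower, and replicate 1 stands above the other libraries for Slc3a2 and Slc7a5.

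Among the other 7 tested Slc6 genes, the osmolyte carrier and the epithelial amino acid carrier moved in opposite directions. Slc6a12 (ENSMUSG00000030109.15, chr6:121343076-121365775), which carries betaine and GABA, was nearly silent in NT. Slc6a12 was at 0.0266, 0.0280 and 0.0299 CPM in NT, 0.664, 0.757 and 2.03 CPM with TGFB2, 0.127, 0.255 and 0.0913 CPM with BMP4, and 3.17, 3.19 and 8.04 CPM with both. In counts this was 3 over the 3 NT libraries, 123 with TGFB2, 16 with BMP4 and 455 with both. The ratio of pooled CPM to NT was 40.5 with TGFB2 (95% interval 13.5 to 199) and 169 with both (57.4 to 821), exact intervals that cover counting error only. The log2 fold change, which at 3 counts depends on the prior count of the fit, was 5.16 ± 0.75 (adjusted p = 0.000661) with TGFB2 and 7.25 ± 0.77 (adjusted p = 6.73e-05) with both, and 4.91 ± 0.64 (adjusted p = 0.00112) for both ligands against BMP4. Replicate 3 was the highest in both groups with TGFB2, and without it the values against NT were 4.47 and 6.65.

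Slc6a14 (ENSMUSG00000031089.7, chrX:21714896-21742355), which takes up neutral and cationic amino acids and is expressed in secretory epithelia, fell with TGFB2. Slc6a14 measured 59.7, 33.2 and 25.4 CPM in NT, 5.03, 5.56 and 1.21 CPM with TGFB2, 66.8, 64.6 and 15.7 CPM with BMP4, and 5.34, 7.92 and 1.07 CPM with both. The TGFB2 and BMP4-TGFB2 libraries were all below NT, and the BMP4 libraries overlapped with NT. On the log2 scale the difference from NT was -3.34 ± 0.77 (adjusted p = 0.00993) with TGFB2 and -3.03 ± 0.76 (adjusted p = 0.0133) with both ligands, against 0.33 ± 0.70 (adjusted p = 0.874) with BMP4. BMP4 against TGFB2 gave 3.67 ± 0.78 (adjusted p = 0.0148), a call lost without TGFB2 replicate 3 or BMP4 replicate 2, with adjusted p up to 0.0542. Without the replicate 1 libraries the calls against NT were lost, at -3.17 with adjusted p = 0.0584 for TGFB2 and -2.72 with adjusted p = 0.0796 for both.

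The creatine carrier Slc6a8 (ENSMUSG00000019558.14, chrX:73673150-73682502) rose with TGFB2. Slc6a8 stood at 128, 83.4 and 85.7 CPM in NT, 224, 177 and 137 CPM with TGFB2, 219, 164 and 114 CPM with BMP4, and 271, 241 and 186 CPM with both. The libraries with TGFB2 were above NT, and the lowest BMP4 library lay within the NT range. The fitted log2 fold change was 0.84 ± 0.26 (adjusted p = 0.0400) with TGFB2 and 1.25 ± 0.27 (adjusted p = 0.00535) with both ligands. With BMP4 it was 0.77 ± 0.26 (adjusted p = 0.128), and with the replicate block it passed, at 0.74 with adjusted p = 0.0019. The call for TGFB2 ended when NT replicate 2 or 3, or replicate 1 or 2 of TGFB2, was left out, with adjusted p up to 0.154. Among the monoamine carriers, all at low counts, the serotonin carrier Slc6a4 was called for BMP4: 79 counts with BMP4 and 139 with both ligands against 5 in NT, log2 fold changes of 3.94 and 4.88. Without NT replicate 3 these were 4.66 and 5.60, and the BMP4 call was lost without NT replicate 2 (adjusted p = 0.0644). The noradrenaline carrier Slc6a2 held 4 counts in NT, 58 with TGFB2 and 1 with BMP4, and was called for TGFB2 (3.69) and both ligands (2.87) against NT. Without NT replicate 2 these were 4.90 and 4.09. The first lost its call without NT replicate 3 and the second without any library of its groups other than NT replicate 2. Without the replicate 1 libraries the calls against NT were lost for Slc6a2 with TGFB2 (adjusted p = 0.0561) and both (adjusted p = 0.0872) and for Slc6a4 with BMP4 (adjusted p = 0.0736). The branched-chain carrier Slc6a15 was not called in these comparisons, nor was Slc6a9, at 0.47 with TGFB2 (adjusted p = 0.731) and 0.44 with both (adjusted p = 0.746). Without the replicate 1 libraries Slc6a9 was called as higher, at 1.19 (adjusted p = 0.00736) and 1.06 (adjusted p = 0.0089). With the replicate block it was called too, at 0.80 (adjusted p = 0.0159) and 0.72 (adjusted p = 0.0222).

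The Slc1 genes held the largest fall. Slc1a1 (ENSMUSG00000024935.11, chr19:28835049-28913960), the epithelial carrier of glutamate and cysteine, was lower in all treated groups. Slc1a1 read 40.9, 61.1 and 52.0 CPM in NT, 1.04, 1.15 and 0.761 CPM with TGFB2, 15.3, 17.3 and 8.22 CPM with BMP4, and 1.16, 2.07 and 1.20 CPM with both. In CPM the 4 groups did not overlap: NT was the highest, followed by BMP4, then both ligands, with TGFB2 lowest. The last pair was apart only by 1.16 against 1.15 CPM. In TPM that pair overlapped, at 0.632, 1.92 and 0.631 with both and 1.09, 0.747 and 0.403 with TGFB2, and there was no call between them. The log2 fold change was -5.72 ± 0.36 (adjusted p = 5.29e-06) with TGFB2, -1.91 ± 0.30 (adjusted p = 0.00456) with BMP4 and -5.12 ± 0.35 (adjusted p = 4.66e-06) with both. TGFB2 also lowered it in the presence of BMP4, at -3.21 ± 0.33 (adjusted p = 0.000348), and BMP4 exceeded TGFB2 by 3.82 ± 0.34 (adjusted p = 0.000230).

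Slc1a5 (ENSMUSG00000001918.17, chr7:16781340-16798274), the exchanger that brings glutamine into proliferating cells, varied little between replicates. Slc1a5 was at 27.8, 28.3 and 27.8 CPM in NT, 9.77, 8.46 and 10.6 CPM with TGFB2, 12.2, 13.5 and 13.6 CPM with BMP4, and 7.24, 5.78 and 7.82 CPM with both. In CPM all 4 groups were separate, from NT, the highest, through BMP4 and TGFB2 to both ligands, the lowest. In TPM the BMP4 and TGFB2 libraries overlapped, at 6.76 to 9.28 and 5.49 to 8.75 TPM. Its log2 fold change was -1.56 ± 0.16 (adjusted p = 6.23e-05) for TGFB2, -1.07 ± 0.15 (adjusted p = 0.00268) for BMP4 and -2.0 ± 0.16 (adjusted p = 1.28e-05) for both. Adding TGFB2 to BMP4 gave -0.92 ± 0.15 (adjusted p = 0.00408). BMP4 against TGFB2 was 0.49 ± 0.15 (adjusted p = 0.0805), and with the replicate block 0.49 with adjusted p = 0.0247.

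Its relative Slc1a4 (ENSMUSG00000020142.12, chr11:20302180-20332713), the carrier of alanine, serine and cysteine, went the other way. Slc1a4 measured 53.0, 14.2 and 18.0 CPM in NT, 147, 72.7 and 59.2 CPM with TGFB2, 53.1, 29.9 and 30.2 CPM with BMP4, and 152, 76.2 and 53.2 CPM with both. Replicate 1 was the highest in each group, and the NT replicate 1 library, at 53.0 CPM, lay close to the lower libraries of both groups with TGFB2 without reaching them. On the log2 scale the difference from NT was 1.71 ± 0.55 (adjusted p = 0.0446) with TGFB2 and 1.74 ± 0.55 (adjusted p = 0.0368) with both ligands. Both calls were lost without NT replicate 2 or 3 or without replicate 1 or 2 of the treated group, with adjusted p up to 0.178, and the values were 2.52 and 2.56 without NT replicate 1. Without the 4 replicate 1 libraries it was 2.00 with adjusted p = 0.000876 for TGFB2 and 2.00 with adjusted p = 0.000631 for both. With BMP4 the value was 0.44 (adjusted p = 0.743), and without those libraries it was called, at 0.90 (adjusted p = 0.0488). In TPM, Slc1a5 exceeded Slc1a4 by 1.05 to 2.95 times in the NT libraries and was 0.0976 to 0.364 times as high with TGFB2, 0.330 to 0.769 with BMP4 and 0.0688 to 0.211 with both. The order of the pair was thus the opposite of that in NT in all 9 treated libraries.

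The glutamate carriers Slc1a2 and Slc1a3 were low. Slc1a2 was called as lower with TGFB2 (-2.92) and with both ligands (-2.91). Its NT libraries held 7.27, 2.41 and 1.77 CPM, and without NT replicate 1 the values were -2.06 and -2.05 with no call left. The call also ended without TGFB2 replicate 1 or 3 and without BMP4-TGFB2 replicate 1 or 2, and the value for both ligands was -4.39 without BMP4-TGFB2 replicate 3. Slc1a3 was highest with BMP4. Slc1a3 stood at 1.78, 2.10 and 6.14 CPM in NT, 1.52, 5.79 and 2.54 CPM with TGFB2, 9.28, 17.5 and 16.2 CPM with BMP4, and 2.89, 5.78 and 3.10 CPM with both. The BMP4 libraries were above those of each other group. BMP4 against TGFB2 gave 2.18 ± 0.58 (adjusted p = 0.0409), which was 2.86 without TGFB2 replicate 2 and lost its call in each case where TGFB2 replicate 1 or 3 or any BMP4 library was left out, with adjusted p up to 0.139. BMP4 against NT was 2.12 ± 0.57 (adjusted p = 0.0563), and with the replicate block 2.14 with adjusted p = 0.00931.

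**Figure D4:**
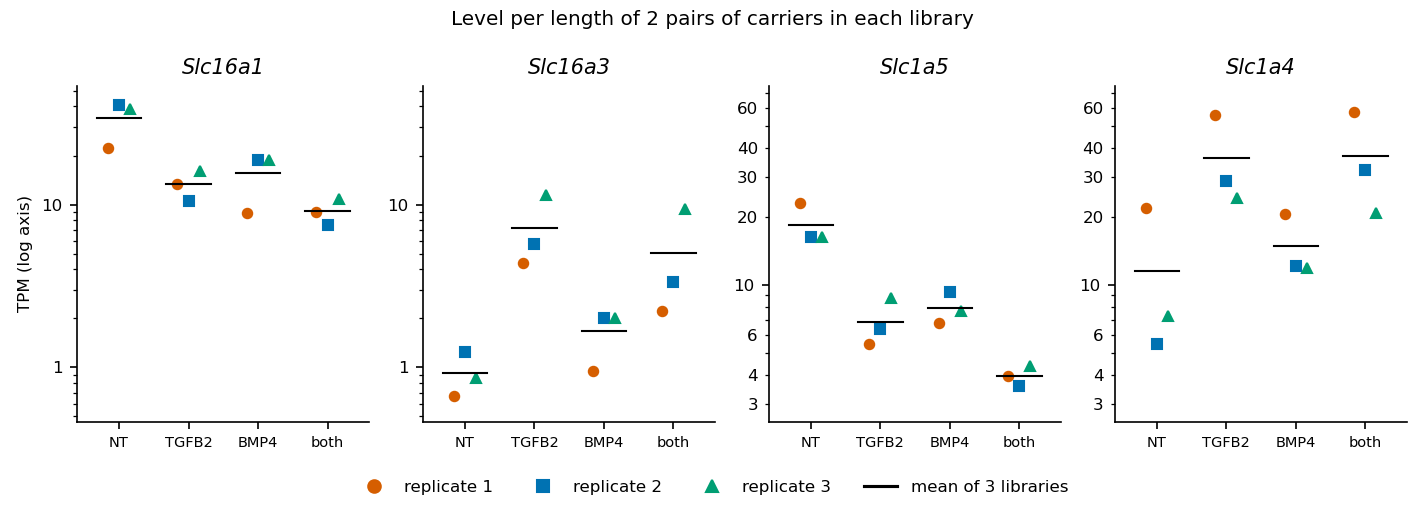
TPM (log axis, the same range within a pair) of the lactate carriers Slc16a1 and Slc16a3 and of the neutral amino acid carriers Slc1a5 and Slc1a4 in each library, with a bar at the mean of 3; "both" is the BMP4-TGFB2 group. In each pair the first is lower and the second higher with TGFB2 than in NT.

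The Slc16 family had 6 of 11 tested members called with TGFB2, 4 higher and 2 lower, 2 higher with BMP4, and 4 higher and 3 lower with both. Of all genes tested 22.3% were called with TGFB2, 5.44% with BMP4 and 26.2% with both. Its lactate carriers moved apart. Slc16a1 (ENSMUSG00000032902.1, chr3:104638668-104658462), which carries lactate and pyruvate in either direction, was lower in all treated groups. Slc16a1 read 62.0, 121 and 110 CPM in NT, 39.9, 30.6 and 45.4 CPM with TGFB2, 26.5, 53.2 and 55.1 CPM with BMP4, and 27.0, 20.4 and 31.7 CPM with both. Every treated library was below every NT library. The fitted log2 fold change was -1.36 ± 0.32 (adjusted p = 0.0108) with TGFB2 and -1.88 ± 0.32 (adjusted p = 0.00151) with both. With BMP4 it was -1.10 ± 0.32 (adjusted p = 0.0722), and with the replicate block -1.11 with adjusted p = 0.0203. The TGFB2 call was lost without NT replicate 2 (adjusted p = 0.0501).

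Slc16a3 (ENSMUSG00000025161.16, chr11:120948480-120960868), the carrier with which glycolytic cells export lactate, was higher with TGFB2. Slc16a3 was at 1.25, 1.79 and 1.38 CPM in NT, 5.76, 7.54 and 14.7 CPM with TGFB2, 1.67, 2.45 and 2.37 CPM with BMP4, and 3.83, 4.87 and 12.9 CPM with both. All libraries with TGFB2, alone or with BMP4, were above all NT and BMP4 libraries, with replicate 3 the highest. The log2 fold change was 2.64 ± 0.49 (adjusted p = 0.00307) with TGFB2 and 2.30 ± 0.49 (adjusted p = 0.00545) with both, while BMP4 gave 0.57 ± 0.48 (adjusted p = 0.601). Without BMP4-TGFB2 replicate 3 the value for both ligands was 1.56 with adjusted p = 0.0184. BMP4 against TGFB2 was -2.06 ± 0.48 (adjusted p = 0.0229), a call lost without TGFB2 replicate 3 or any BMP4 library, with adjusted p up to 0.0953. In TPM, Slc16a1 stood 33.0 to 44.9 times above Slc16a3 in NT, 9.31 to 9.45 times with BMP4, 1.40 to 3.04 times with TGFB2 and 1.15 to 4.06 times with both, so Slc16a1 remained the higher of the pair in all 12 libraries.

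The rise of Slc16a12 (ENSMUSG00000009378.4, chr19:34668403-34747289), a carrier of creatine, was shared by both ligands. Slc16a12 measured 1.15, 0.420 and 0.748 CPM in NT, 19.9, 17.9 and 10.8 CPM with TGFB2, 10.7, 7.23 and 5.08 CPM with BMP4, and 23.1, 20.8 and 7.40 CPM with both. The 9 treated libraries were at 5.08 CPM or more and the NT libraries at most 1.15 CPM. Its log2 fold change was 4.37 ± 0.52 (adjusted p = 0.000195) with TGFB2, 3.33 ± 0.51 (adjusted p = 0.00396) with BMP4 and 4.48 ± 0.52 (adjusted p = 0.000126) with both. The mean level with both ligands, 17.1 ± 8.48 CPM (SD, n = 3), stood beside 16.2 ± 4.81 CPM with TGFB2 alone, with no call between them.

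Slc16a1, Slc16a3 and Slc16a12 are among the 12 of 62 carriers with a RefSeq promoter window that hold GGCGCC, a GC-rich sequence that SMAD proteins can bind and that reads the same on both strands, in the 250 bases before a start site. It occurs in 3149 of 32851 windows of that length in all genes, or 9.59%. That share is per window, while carriers are counted per gene, and a gene can have several windows. The counts of carriers are therefore not comparable with the shares of windows, here or for the sequences below. The other carriers with GGCGCC were Slc7a1, Slc7a15, Slc38a2, Slc36a4, Slc43a1, Slc6a3, Slc6a4, Slc6a11 and Slc6a17. The windows are shown because these 3 genes of a single family moved in both directions while holding the same letters, which stand in capitals (RefSeq, GRCm38.p6, 5′ to 3′ on the strand of the gene).
Slc16a1, chr3:104638414-104638663, plus strand: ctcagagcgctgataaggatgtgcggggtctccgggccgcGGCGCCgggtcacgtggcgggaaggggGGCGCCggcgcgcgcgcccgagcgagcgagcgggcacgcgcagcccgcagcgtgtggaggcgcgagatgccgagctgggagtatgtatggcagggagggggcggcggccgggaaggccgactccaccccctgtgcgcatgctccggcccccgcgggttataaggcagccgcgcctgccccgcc
Slc16a3, chr11:120948817-120949066, plus strand: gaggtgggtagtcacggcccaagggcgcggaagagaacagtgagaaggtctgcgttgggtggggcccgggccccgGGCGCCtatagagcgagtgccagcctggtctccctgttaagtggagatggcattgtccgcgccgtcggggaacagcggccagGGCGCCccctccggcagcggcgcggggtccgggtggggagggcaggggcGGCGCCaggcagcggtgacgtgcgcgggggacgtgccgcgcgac
Slc16a12, chr19:34747329-34747578, minus strand: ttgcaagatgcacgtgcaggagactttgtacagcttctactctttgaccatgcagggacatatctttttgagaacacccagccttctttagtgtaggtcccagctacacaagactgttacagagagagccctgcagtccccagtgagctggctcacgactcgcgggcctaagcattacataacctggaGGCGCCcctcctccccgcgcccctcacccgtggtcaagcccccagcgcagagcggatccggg
Slc16a1 holds 2 matches, Slc16a3 holds 3 and Slc16a12 holds 1. A match is a description of the letters and not a site of binding. CAGACA, the other SMAD sequence searched on both strands, occurs in 17.1% of all windows and in 12 of the 62 carriers, of which Slc6a12 and Slc7a7 were tested here. ACGTG, the core of the hypoxia response element, occurs in 16.6% of windows and in 19 carriers, Slc2a1 and the 3 shown above among them; it lies within CACGTG, the E-box, which 6.02% of windows and 11 carriers hold.

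Among the remaining Slc16 genes, Slc16a10 (ENSMUSG00000019838.11, chr10:40033532-40142258), which carries tryptophan, tyrosine and phenylalanine, was higher in all treated groups. Slc16a10 stood at 0.826, 0.925 and 1.17 CPM in NT, 5.19, 5.46 and 3.61 CPM with TGFB2, 3.70, 2.93 and 2.31 CPM with BMP4, and 9.00, 11.7 and 4.04 CPM with both. In CPM no treated library overlapped with NT. In TPM the groups did overlap, with 0.241, 0.379 and 1.50 TPM in NT against 1.43, 2.05 and 1.04 TPM with TGFB2. On the log2 scale the difference from NT was 2.27 ± 0.38 (adjusted p = 0.00168) with TGFB2, 1.63 ± 0.38 (adjusted p = 0.0305) with BMP4 and 3.09 ± 0.39 (adjusted p = 0.000213) with both. The BMP4 call was lost without NT replicate 1, 2 or 3 or without BMP4 replicate 1 or 2, with adjusted p up to 0.123, and with the replicate 1 libraries left out it was 1.32 with adjusted p = 0.194. On log2 of TPM plus 1 the TGFB2 value was 0.61 (adjusted p = 0.286) and the BMP4 value 0.27 (adjusted p = 0.795), neither called.

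At no more than 1.40 CPM, the lactate carrier Slc16a7 was called as higher with TGFB2 (1.95) and both (2.60), the first call ending without NT replicate 2 (adjusted p = 0.0626), with no filter on low counts (0.0580) and without the replicate 1 libraries (0.0761). In TPM the groups overlapped, at 0.318 ± 0.428 in NT, 0.272 ± 0.0222 with TGFB2 and 0.468 ± 0.275 with both, and on log2 of TPM plus 1 neither call was made, at -0.00 (adjusted p = 0.992) and 0.19 (adjusted p = 0.592). Slc16a4, at no more than 1.49 CPM, was called as lower with both (-3.90). Slc16a5, Slc16a6, Slc16a8 and Slc16a14 were not called. Slc16a6 shares exons with Arsg on the other strand, whose mean CPM was 138% of its own, and the protocol names no step that marks strand, so reads of the pair may not be separated.

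The exchangers built on the heavy chain included the highest carriers of NT cells, and of their 5 tested members 1 was called in 1 comparison against NT. That comparison was for both ligands, where 26.2% of all genes were called, beside 22.3% with TGFB2 and 5.44% with BMP4. The heavy chain Slc3a2 (ENSMUSG00000010095.13, chr19:8706882-8723369) was not called. Slc3a2 read 448, 208 and 233 CPM in NT, 722, 326 and 295 CPM with TGFB2, 517, 242 and 230 CPM with BMP4, and 797, 355 and 274 CPM with both. Replicate 1 lay above the mean of the others by 1.03 to 1.35 on the log2 scale in each group, and all groups overlapped. The log2 fold changes were 0.59 ± 0.50 (adjusted p = 0.436) with TGFB2, 0.18 ± 0.49 (adjusted p = 0.908) with BMP4 and 0.70 ± 0.50 (adjusted p = 0.332) with both. Without the replicate 1 libraries they were 0.46 with adjusted p = 0.0453, 0.10 with adjusted p = 0.749, and 0.51 with adjusted p = 0.0277. With the replicate block Slc3a2 passed for TGFB2, at 0.54 with adjusted p = 0.00386, and for both, at 0.63 with adjusted p = 0.00135.

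Slc7a5 (ENSMUSG00000040010.10, chr8:121881150-121907694), the light chain LAT1 that brings in leucine and other large neutral amino acids, was lower in the treated groups. Slc7a5 was at 429, 271 and 258 CPM in NT, 198, 60.5 and 111 CPM with TGFB2, 136, 98.4 and 92.6 CPM with BMP4, and 178, 52.6 and 83.0 CPM with both. No treated library reached the NT range of 258 to 429 CPM. The call was made for both ligands, at -1.60 ± 0.47 (adjusted p = 0.0281). With TGFB2 the value was -1.38 ± 0.47 (adjusted p = 0.0555) and with BMP4 -1.53 ± 0.47 (adjusted p = 0.0929), neither past the threshold. With the replicate block each passed, at -1.51 for TGFB2 (adjusted p = 0.000850) and -1.51 for BMP4 (adjusted p = 0.00277). Each also passed with DESeq2, with adjusted p of 0.0120 and 0.0116. On log2 of TPM plus 1 TGFB2 passed (adjusted p = 0.0369) and BMP4 did not. Leaving out a single library gave a TGFB2 call only without TGFB2 replicate 1 (-1.92, adjusted p = 0.0235). Without the replicate 1 libraries the values were -1.66 (adjusted p = 0.00858) for TGFB2, -1.47 (adjusted p = 0.0433) for BMP4 and -1.96 (adjusted p = 0.00365) for both ligands. The call for both was lost without NT replicate 1 or 2 or BMP4-TGFB2 replicate 2 or 3, with adjusted p of 0.0548 to 0.0888, and was -2.22 without BMP4-TGFB2 replicate 1.

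Slc7a11 (ENSMUSG00000027737.10, chr3:49892526-50443614), the light chain xCT that takes up cystine in exchange for glutamate and feeds glutathione synthesis, was not called. Slc7a11 measured 211, 80.3 and 181 CPM in NT, 388, 282 and 201 CPM with TGFB2, 229, 197 and 213 CPM with BMP4, and 364, 379 and 180 CPM with both. The NT replicate 2 library was the lowest of the 12, and all groups overlapped with NT. The log2 fold changes were 0.87 ± 0.36 (adjusted p = 0.109), 0.46 ± 0.36 (adjusted p = 0.562) and 0.98 ± 0.36 (adjusted p = 0.0676) for TGFB2, BMP4 and both. For both ligands it passed with DESeq2, with no filter on low counts, with the replicate block, and without NT replicate 1 or BMP4-TGFB2 replicate 3, with adjusted p of 0.00924 to 0.0448. Its promoter window is shown because it holds TTGCATCA, the composite element to which ATF4 binds, on both strands, with the matches in capitals (RefSeq, GRCm38.p6, 5′ to 3′ on the strand of the gene).
Slc7a11, chr3:50443614-50443863, minus strand: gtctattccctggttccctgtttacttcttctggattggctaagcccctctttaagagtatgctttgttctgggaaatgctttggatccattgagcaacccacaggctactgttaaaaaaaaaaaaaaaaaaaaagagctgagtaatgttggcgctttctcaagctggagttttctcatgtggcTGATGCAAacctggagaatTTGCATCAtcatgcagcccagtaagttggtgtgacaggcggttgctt
The 8 letters occur in 260 of 32851 windows, or 0.791%, and in 2 of the 62 carriers, Slc7a11 and Slc7a7. Carriers are again counted per gene, so these counts are not comparable. Slc7a11 was not among the carriers whose replicate 1 library was the highest in all 4 groups: with BMP4-TGFB2 it was second of 3. The light chains Slc7a6 and Slc7a7 gave log2 fold changes of 0.55 and 0.20 with TGFB2 and no call. With the replicate block Slc7a6 was called, at 0.54 with TGFB2 (adjusted p = 0.0113) and 0.38 with both (adjusted p = 0.0468). Slc7a7 shares exons with Oxa1l on the other strand, whose mean CPM was 128% of its own.

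Among the cationic amino acid carriers, Slc7a2 (ENSMUSG00000031596.15, chr8:40862396-40922308), which supplies arginine and lysine, was higher in all treated groups. Slc7a2 stood at 6.39, 3.98 and 11.3 CPM in NT, 25.4, 43.2 and 29.6 CPM with TGFB2, 20.1, 20.2 and 26.9 CPM with BMP4, and 22.3, 45.4 and 27.5 CPM with both. No treated library overlapped with NT. The log2 fold change was 2.16 ± 0.38 (adjusted p = 0.00208) with TGFB2, 1.66 ± 0.37 (adjusted p = 0.0271) with BMP4 and 2.15 ± 0.38 (adjusted p = 0.00178) with both. The BMP4 call was lost without NT replicate 1 or 2 or any BMP4 library, with adjusted p up to 0.106, and with the replicate 1 libraries left out the value was 1.63 with adjusted p = 0.102. Slc7a1, the more abundant arginine carrier at 36.6 ± 12.6 TPM in NT against 1.72 ± 0.942 TPM for Slc7a2, gave -0.34, -0.64 and -0.51 with no call. Its value for both passed with the replicate block (-0.57, adjusted p = 0.0284) and without the replicate 1 libraries (-0.73, adjusted p = 0.0160). Slc7a4, whose substrate is not settled, was called as lower with TGFB2 (-0.73) and both (-0.65), the first call ending without NT replicate 1 or TGFB2 replicate 1 or 2 and the second without NT replicate 1 or 2 or any BMP4-TGFB2 library, with adjusted p up to 0.0811.

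Of the 8 tested Slc38 genes, 1 was called, with TGFB2 and with both, beside 22.3% and 26.2% of all genes. Slc38a10, among the 2 highest carriers by TPM in all 4 groups, rose with TGFB2 (0.64) and both (0.68), calls lost for TGFB2 without NT replicate 2 or TGFB2 replicate 2 or 3 and for both without BMP4-TGFB2 replicate 2. Slc38a2 (ENSMUSG00000022462.7, chr15:96687392-96699730), the system A carrier that cells induce when amino acids are scarce, was not called. Slc38a2 read 416, 239 and 248 CPM in NT, 533, 295 and 406 CPM with TGFB2, 329, 295 and 269 CPM with BMP4, and 531, 400 and 382 CPM with both. Replicate 1 was the highest in each group, and all groups overlapped with NT. The values were 0.44 ± 0.25 (adjusted p = 0.236), 0.01 ± 0.25 (adjusted p = 0.993) and 0.55 ± 0.25 (adjusted p = 0.125); without the replicate 1 libraries that for both ligands was 0.68 with adjusted p = 0.0157. With the replicate block Slc38a2 passed for TGFB2 (0.44, adjusted p = 0.0254) and for both (0.58, adjusted p = 0.00624). The lysosomal glutamine exporter Slc38a7 gave 0.95 with TGFB2 (adjusted p = 0.193) and 1.19 with both (adjusted p = 0.0983). Without the replicate 1 libraries these were 0.96 (adjusted p = 0.0048) and 1.25 (adjusted p = 0.00133). With the replicate block they were 0.96 (adjusted p = 4.52e-05) and 1.21 (adjusted p = 8.12e-06). Among the 5 tested Slc36 and Slc43 genes, edgeR made 0 calls against NT, with 1 gene at an unadjusted p under 0.05 and 1 called by DESeq2 in each of the 3 comparisons. With TGFB2 and with both the gene called by DESeq2 was Slc36a2, at 5.38 (adjusted p = 0.0309) and 5.31 (adjusted p = 0.0303). Its NT libraries held 0, 0 and 1 count. With BMP4 the gene called by DESeq2 was Slc43a2, at 1.26 (adjusted p = 0.0222). The branched-chain amino acid carrier Slc43a2 had 185, 225 and 144 CPM with BMP4, above the NT libraries of 71.0 to 82.2 CPM. Its log2 fold change was 1.27 ± 0.41 (adjusted p = 0.105), and with the replicate block 1.19 with adjusted p = 0.0178.

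Of the 6 tested sugar carriers, 3 rose and 1 fell with TGFB2, where 11.3% of all genes were called higher and 11.1% lower. Slc2a1 (ENSMUSG00000028645.11, chr4:119108711-119137983), the main glucose carrier of these cells, was 99.5 ± 6.23 TPM in NT and 146 ± 23.5 TPM with TGFB2. Slc2a1 was at 194, 181 and 183 CPM in NT, 336, 244 and 253 CPM with TGFB2, 183, 147 and 176 CPM with BMP4, and 270, 190 and 191 CPM with both. The TGFB2 libraries were above NT, and the groups with BMP4 overlapped with NT. On the log2 scale the difference from NT was 0.56 ± 0.17 (adjusted p = 0.0374) with TGFB2, -0.11 ± 0.17 (adjusted p = 0.806) with BMP4 and 0.23 ± 0.17 (adjusted p = 0.353) with both. The call was lost without any 1 of the NT libraries or without TGFB2 replicate 1 or 3, with adjusted p up to 0.158. It was kept without the 4 replicate 1 libraries, at 0.42 with adjusted p = 0.0425.

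Slc2a4 (ENSMUSG00000018566.14, chr11:69942539-69948188), the glucose carrier that insulin brings to the surface of muscle and fat cells, was low and rose. Slc2a4 measured 1.81, 1.65 and 1.98 CPM in NT, 8.85, 5.46 and 4.31 CPM with TGFB2, 3.02, 3.28 and 3.35 CPM with BMP4, and 8.81, 8.20 and 4.81 CPM with both. All treated libraries were above NT. The fitted log2 fold change was 1.76 ± 0.31 (adjusted p = 0.00220) with TGFB2 and 2.01 ± 0.31 (adjusted p = 0.000813) with both, against 0.85 ± 0.31 (adjusted p = 0.154) with BMP4. The urate carrier Slc2a9 (ENSMUSG00000005107.13, chr5:38349273-38503143) followed the same order. Slc2a9 stood at 2.00, 1.29 and 1.98 CPM in NT, 7.11, 7.63 and 5.08 CPM with TGFB2, 2.97, 1.18 and 2.68 CPM with BMP4, and 6.44, 8.13 and 5.30 CPM with both. The groups with TGFB2 were above NT and BMP4, which overlapped. Its log2 fold change was 1.89 ± 0.36 (adjusted p = 0.00325) with TGFB2, 0.41 ± 0.35 (adjusted p = 0.615) with BMP4 and 1.93 ± 0.36 (adjusted p = 0.00243) with both.

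Slc2a6 (ENSMUSG00000036067.12, chr2:27021363-27027998), a sugar carrier of lysosomes, fell. Slc2a6 read 16.1, 9.16 and 7.81 CPM in NT, 5.12, 5.23 and 3.72 CPM with TGFB2, 19.7, 10.8 and 7.55 CPM with BMP4, and 3.14, 1.82 and 1.81 CPM with both. The groups with TGFB2 were below NT and BMP4, which overlapped. The log2 fold change was -1.25 ± 0.39 (adjusted p = 0.0381) with TGFB2 and -2.27 ± 0.40 (adjusted p = 0.00179) with both, against 0.22 ± 0.38 (adjusted p = 0.832) with BMP4. The TGFB2 call was lost without NT replicate 1 or 2 or any TGFB2 library, with adjusted p up to 0.134. Slc2a3 and Slc2a8 were not called.

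Adding TGFB2 to BMP4-treated cells, that is both ligands against BMP4, called 8 carriers as higher and 5 as lower, 15.7% and 9.80% of 51, beside 4.24% and 4.98% of all genes. The higher ones were Slc6a2, Slc6a6, Slc6a12, Slc2a4, Slc2a9, Slc16a3, Slc16a7 and Slc16a10, and the lower ones included Slc1a1, Slc1a5, Slc6a14 and Slc2a6. All 13 had been called in the same direction for TGFB2 against NT, and the like share over all genes was not counted. The comparisons share no library with each other. They are not independent, as they come from the same fit and same-numbered replicates deviated together. The values were 4.49 for Slc6a2, 1.81 for Slc6a6, 4.91 for Slc6a12, 1.17 for Slc2a4, 1.52 for Slc2a9, 1.73 for Slc16a3, 2.29 for Slc16a7 and 1.46 for Slc16a10. For these lower carriers they were -3.21 for Slc1a1, -0.92 for Slc1a5, -3.37 for Slc6a14 and -2.49 for Slc2a6. Slc1a1, Slc1a5, Slc6a6, Slc6a12 and Slc2a6 kept the call under every alternative run. Leaving out a single library ended that of Slc6a2, Slc6a14, Slc2a4, Slc2a9, Slc16a3 and Slc16a10. The count was 7 without BMP4 replicate 2 and 8 without BMP4-TGFB2 replicate 2, beside 4.11% and 6.19% of all genes. Without BMP4-TGFB2 replicate 3 Slc16a3 was at 0.99 with no call and Slc6a12 at 4.31, and without BMP4 replicate 3 Slc6a2, whose BMP4 libraries hold 1 count, was at 6.40. With the replicate block 24 carriers were called, beside 22.7% of all genes, among them Slc3a2, Slc7a6, Slc1a4, Slc38a2, Slc38a7, Slc38a10, Slc6a8, Slc6a9 and Slc16a12 as higher and Slc1a3 and Slc43a2 as lower in addition.

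BMP4 against TGFB2 called 4 carriers as higher with BMP4 and 6 as lower, 7.84% and 11.8%, beside 4.16% and 3.67% of all genes. The higher ones were Slc1a1, Slc1a3, Slc6a14 and Slc2a6 and the lower ones Slc6a2, Slc6a6, Slc6a12, Slc2a1, Slc2a9 and Slc16a3. The count was 3, 4 and 6 without BMP4 replicate 2, 1 and 3, and 6 and 5 without TGFB2 replicate 1 and 3. The shares of all genes were 3.50%, 4.52%, 7.10%, 4.16% and 4.02% in that order. Without BMP4 replicate 3 Slc6a2 was at -7.21, and without TGFB2 replicate 3 Slc6a12 was at -2.12 with no call. Slc1a1 and Slc6a6 kept their call under every alternative run, and the other 8 each lost it without at least 1 library. With the replicate block 23 carriers were called, beside 19.6% of all genes. BMP4 against NT likewise gave 16 carriers with the replicate block, beside 15.4% of all genes, with Slc1a3, Slc38a7, Slc43a2 and Slc6a8 as higher and Slc7a5, Slc7a4, Slc16a1 and Slc16a4 among those lower in addition. These shares with the block were 45.1% and 31.4% of the carriers tested.

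Adding BMP4 to TGFB2-treated cells called no carrier by edgeR, and 0% of all genes. At an unadjusted p under 0.05 there were 7 of 51 carriers, beside 516 of all 15319 genes. DESeq2 called 2 carriers, or 3.92%, beside 0.333% of all genes. These were the serotonin carrier Slc6a4 as higher at 3.27 (adjusted p = 0.00156 by DESeq2) and Slc16a4 as lower at -3.61 (adjusted p = 0.0244 by DESeq2), both under 2 CPM. By edgeR the same values were 3.25 ± 0.65 (adjusted p = 0.427) and -3.53 ± 0.76 (adjusted p = 0.460). The test of an interaction between TGFB2 and BMP4, in log2 units, also called no carrier by edgeR, where 0.157% of all genes were called. At an unadjusted p under 0.05 there were 8 of 51 carriers, beside 1290 of 15319 genes. DESeq2 called 2, or 4.35% of the carriers it tested, beside 2.01% of all genes. They were Slc1a1, with an interaction of 2.51 ± 0.45 (adjusted p = 0.0662) by edgeR, and Slc16a12, with -3.22 ± 0.66 (adjusted p = 0.0963) by edgeR. For both, the change with both ligands was nearer to that of TGFB2 alone than the sum of the single changes would be on this scale.

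The pathways that these carriers feed were read from 8 lists of genes that are not carriers, and each list's median is given beside the median over all genes tested, which was 0.01 for TGFB2 against NT. Counts of called genes are read beside the 11.3% of all genes called higher and 11.1% called lower with TGFB2, or 22.3% in either direction. With TGFB2, 45% of the cystine and glutathione list, 45.5% of the branched-chain list and 33.3% of the arginine list were called, while the glucose list at 25% and the glutamine list at 23.5% were near the share of all genes, and the stress response list at 17.2%, the sensing list at 16% and the creatine list at 11.1% were below it. These differences were not tested, and other fits gave other shares, printed below. Of 20 genes of cystine and glutathione metabolism and NRF2 targets, 7 rose and 2 fell with TGFB2, with a median of 0.34. Srxn1, which reduces oxidised peroxiredoxin, changed by 1.80 (adjusted p = 0.000609), Gclc, the catalytic subunit of glutathione synthesis, by 2.17 (adjusted p = 0.00173), and the haem-degrading enzyme Hmox1 by 2.12 (adjusted p = 0.00533). Of 17 genes of glutamine and glutamate metabolism, 4 fell, with a median of -0.07. Gfpt1, which starts the hexosamine pathway from glutamine, changed by -1.45 (adjusted p = 4.45e-05), Glul, glutamine synthetase, by -1.72 (adjusted p = 0.000133), and the mitochondrial transaminase Got2 by -0.36 (adjusted p = 0.0191). Of 11 tested genes of branched-chain amino acid metabolism, 5 fell, with a median of -0.38. They included Mccc2 of leucine breakdown at -0.91 (adjusted p = 0.00106), Dbt of the branched-chain keto acid dehydrogenase at -0.80 (adjusted p = 0.00127) and its phosphatase Ppm1k at -1.48 (adjusted p = 0.00435).

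Of 15 tested genes of arginine, proline and polyamine metabolism, 1 rose and 4 fell with TGFB2, with a median of -0.24. Both arginases fell, Arg1 at -4.77 (adjusted p = 0.000414) and Arg2 at -2.47 (adjusted p = 0.0141), as did spermine synthase, Sms, at -0.79 (adjusted p = 0.0171). Of 28 genes of glucose and lactate handling, 1 rose and 6 fell, with a median of -0.24. Pdk1, which inhibits pyruvate dehydrogenase, changed by -1.22 (adjusted p = 0.000326), and the glucose-sensing factors Mlx and Mlxip by -0.81 (adjusted p = 0.00240) and -0.87 (adjusted p = 0.00267). Of 25 genes of amino acid sensing and mTORC1, 4 rose, with a median of 0.05: among them the arginine sensor Castor1 at 0.58 (adjusted p = 0.0277), its relative Castor2 at 0.97 (adjusted p = 0.0284), and Tfe3, a transcription factor of lysosomal genes, at 0.31 (adjusted p = 0.0311). Of 9 tested genes of creatine and taurine metabolism, 1 fell, the mitochondrial creatine kinase Ckmt1 at -3.92 (adjusted p = 0.000110), with a median of -0.12. Of 29 genes of the integrated stress response, 1 rose and 4 fell, with a median of 0.03. Ddit4, an inhibitor of mTORC1, changed by 2.10 (adjusted p = 0.00191), while Cth and Psat1, enzymes of cysteine and serine synthesis, changed by -1.38 (adjusted p = 0.00637) and -1.54 (adjusted p = 0.00867). Without the replicate 1 libraries 9 genes of this last list rose and 4 fell with TGFB2, or 46.4%, beside 26.3% of all genes. With the replicate block 55.2% of it were called, beside 37.9% of all genes. Without the replicate 1 libraries the arginine list was at 53.3%, the glucose list at 46.4% and the branched-chain list at 45.5%. The glutamine list was then at 35.3%, the cystine list at 30.0%, the creatine list at 25.0% and the sensing list at 24.0%. With all 12 libraries and no block, for both ligands the cystine and glutathione list had 8 genes higher and 2 lower, with a median of 0.44. The branched-chain list had 7 lower, with a median of -0.61, and the glucose and lactate list 1 higher and 8 lower, with a median of -0.26. Of all genes tested, 13.3% were called higher and 12.9% lower with both ligands, and their median was 0.01. In either direction the glucose and lactate list was at 32.1%, near the 26.2% of all genes. With BMP4 these lists had 1 higher and 1 lower at a median of 0.23, 4 lower at -0.39 and 1 lower at -0.04, beside a median over all genes of 0.00. With the replicate block these counts for BMP4 were 4 higher and 1 lower, 5 lower, and 1 higher and 5 lower, and the stress response list had 4 higher and 9 lower in place of 1 lower, where 15.4% of all genes were called with the block and 5.44% without it.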

How the data were processed

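RNA-seq of 12 libraries, 3 in each of 4 groups, was analysed from gene-level tables of estimated counts and TPM deposited by the authors for 54347 genes. Of the deposited estimated counts, 82.9% were whole numbers, and all were rounded before testing. TPM, as deposited by the authors, served for levels between genes. The submitters' processing notes name bcl2fastq 2.17, STAR 2.7.5b, Salmon 1.2.1 and GRCm38.p6; the sources used here do not state which tool gave which table or the annotation. Per the labels' protocols libraries were made with a NEBNext Ultra II kit, with no step named that marks strand, so overlapping genes on opposite strands may share reads. Gene positions were read from GENCODE M21 (GRCm38), which held 86 of the 87 identifiers, and promoter windows from RefSeq.

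Genes passing filterByExpr with a minimum count of 10 (15319, holding 99.9% of the counts) were fitted with edgeR 4.0.16 in R 4.3.3, by the quasi-likelihood test, in 1 model over the 12 libraries by group with TMM factors. P-values were adjusted by Benjamini-Hochberg over all genes tested. The SE is the absolute log2 fold change divided by the square root of F. CPM used library totals without TMM factors. The procedure was tested on simulated data in which the libraries deviated independently of each other, unlike those here. It called 43 of 100 genes changed by 1 in log2 and 85 of 100 changed by 2, with 5 calls among unchanged genes. A carrier without a call may therefore have changed. Alternatives used DESeq2 1.42.0, limma 3.58.1, other normalization and filters, a replicate block and fewer libraries. The carriers described in full were those called against NT with a log2 fold change of at least 1 in size and a group mean of at least 4 CPM, plus Slc3a2, Slc7a5, Slc7a11, Slc1a5, Slc38a2, Slc2a1, Slc16a1 and Slc16a3; genes of the other lists were the called ones with the smallest p for TGFB2 against NT. Other carriers named were chosen after their values were seen. A few genes counted in the totals are not reported here by name. Members and lists were chosen with earlier results of these data known.

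Same-numbered replicates deviated together in every pair, with correlations of 0.16 to 0.44 for BMP4 against NT, 0.15 to 0.35 for both ligands against BMP4 and for BMP4 against TGFB2, and 0.23 to 0.50 for both against TGFB2, so the block is given beside these results where it changes a call. For TGFB2 and for both ligands against NT the lowest correlations were 0.08 and 0.03. The libraries differed from each other by more than sampling noise, with a lowest chi-square per degree of freedom of 31.7.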

Additional observations from a re-analysis of the deposited data

How the results depend on the processing

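Of 76 called values, 35 kept their call under every alternative run, 41 lost it under at least 1, and 0 changed direction. The test on log2 of TPM plus 1 lost 22 of the 76, and leaving out every replicate 1 library lost 27. The share of all genes called is given beside each count, as it moved with the setting too. For TGFB2 against NT, leaving out 1 library gave 14 to 18 carriers called (12.7 to 22.9% of all genes) instead of 22 (22.3%). For BMP4 against NT, DESeq2 gave 13 (10.4%) and no filter on low counts 12 (3.59%) instead of 7 (5.44%). Leaving out 1 library gave 4 to 7 (1.84 to 4.67%). For both ligands against TGFB2, DESeq2 gave 2 (0.333%) instead of 0 (0%). For both against BMP4, leaving out 1 library gave 7 to 11 (4.11 to 8.17%) instead of 13 (9.22%). For BMP4 against TGFB2, where 10 (7.83%) were called, DESeq2 gave 16 (12.9%), the TPM test 6 (6.28%) and a fit of only the groups compared 6 (5.84%). The fit without every replicate 1 library gave 4 (5.69%), and leaving out 1 library 3 to 9 (3.50 to 7.10%). For the interaction, DESeq2 gave 2 (2.01%) and no filter 3 (0.571%) instead of 0 (0.157%). With the replicate block the counts were 16 for BMP4 against NT, 24 for both against BMP4, 23 for BMP4 against TGFB2, 28 for TGFB2 against NT, 32 for both against NT and 3 for the interaction, namely Slc1a1 at 2.52, Slc6a6 at -0.86 and Slc16a12 at -3.28. The shares of all genes called with the block were 15.4%, 22.7%, 19.6%, 37.9%, 41.4% and 1.83% in that order. Without every replicate 1 library the called genes of the stress response list numbered 13 with TGFB2, 4 with BMP4 and 14 with both, those of the glucose list 13 with TGFB2 and 3 with BMP4, those of the arginine list 8 with TGFB2 and 1 with BMP4, those of the creatine list 2 with TGFB2 and 2 with both, those of the sensing list 7 with both, and those of the cystine and branched-chain lists 1 each with BMP4. Of all genes that fit called 26.3% with TGFB2, 4.37% with BMP4 and 30.8% with both. For BMP4 against NT the uncalled value of Slc3a2 ran from -0.32 without BMP4 replicate 1 to 0.61 without NT replicate 1, with -0.01 without NT replicate 2, and that of Slc38a2 was 0.31 without NT replicate 1, -0.02 with no filter, -0.12 without NT replicate 2, -0.11 without NT replicate 3 and -0.09 without BMP4 replicate 1. The causes of these shifts were not tested. Carriers of a few counts per library, such as Slc6a2, Slc6a4 and Slc6a12 in NT, give fold changes that the depth does not fix.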

Other observations

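Per length, the leucine carrier Slc7a5 and the cystine carrier Slc7a11, which share the heavy chain Slc3a2, stood in a higher ratio in NT than in the treated groups, which overlapped with each other. The ratio of their TPM was 5.60, 9.19 and 3.87 in the NT libraries, 1.39, 0.578 and 1.50 with TGFB2, 1.60, 1.39 and 1.18 with BMP4, and 1.33, 0.376 and 1.25 with both ligands. All 9 treated libraries were below the 3 NT libraries, and Slc7a11 exceeded Slc7a5 in the replicate 2 libraries of both groups with TGFB2. This ratio was chosen after its values were seen. The Slc16 family as a whole held 79.7 ± 4.14 TPM (SD, n = 3) in NT, 53.7 ± 3.99 TPM with TGFB2, 53.6 ± 8.78 TPM with BMP4 and 40.6 ± 2.01 TPM with both, while the Slc2 family held 122 ± 12.3, 171 ± 24.5, 118 ± 12.7 and 138 ± 22.9 TPM in the same order.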
